A study of Mus musculus with 6 samples.

Results

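The Slc2a genes encode the family of facilitative sugar transporters. Most of these membrane proteins let glucose, fructose and related molecules pass down their concentration gradient without the use of energy, while the product of Slc2a13 is coupled to protons. The 10 genes described here are Slc2a1, Slc2a2, Slc2a3, Slc2a4, Slc2a6, Slc2a8, Slc2a9, Slc2a10, Slc2a12 and Slc2a13. They were chosen by name from a table of 41388 mouse genes, and all 10 were listed above 0 in at least 1 library. The libraries came from primary murine hepatocytes of the C57BL/6J strain, freed with collagenase, kept in growth medium overnight and given adenovirus that carried either β-gal as the control (replicates 1, 2 and 3) or Aloxe3, which encodes a lipoxygenase (replicates 7, 8 and 9). Both groups received about 1000000 viral particles per 1000000 cells, and RNA was collected 24 h later, so that all 6 libraries share exposure to virus and culture. Neither the age or sex of the donor mice nor the use of separate animals or cultures for the replicates is stated, and p-values measure only the spread between these libraries.

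Facilitative transport sets how fast glucose crosses the hepatocyte membrane in both directions. GLUT2, the product of Slc2a2, is the low-affinity, high-capacity carrier known as the main glucose transporter of the hepatocyte in the liver, and it lets glucose in after a meal and out during fasting. GLUT1, the product of Slc2a1, is a carrier of high affinity found in most growing and cultured cells, in red blood cells and in the endothelium of the brain. After entry, glucose is phosphorylated by hexokinases, and is released again only after glucose 6-phosphatase has removed the phosphate.

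The deposited values are RPKM, read counts divided by gene length and by library size, which allow levels to be compared between genes. The library size behind the scaling was 25521908 to 32431318 reads. Aloxe3 was at 1.74 to 2.06 RPKM in the β-gal libraries and at 42.3 to 56.3 RPKM in the Aloxe3 libraries, so that the groups were apart as labelled. Of 12 hepatocyte markers, 11 averaged 1 RPKM or more over the 6 libraries, with Alb (albumin) at 4362 to 4552 RPKM, while Tat (tyrosine aminotransferase) was at 0.193 to 0.346 RPKM with β-gal and 0.438 to 0.661 RPKM with Aloxe3, and Cps1 (the first enzyme of the urea cycle) at 0.915 to 1.05 and 1.29 to 1.64 RPKM. Among the 11 markers high enough for the limma test described below, 0 passed, against 0.394% of all tested genes. At an unadjusted p under 0.05, 1 of these markers was higher and 2 were lower, against 12.7% of all tested genes in either direction. The groups did not overlap for 1 that was higher with Aloxe3 (Cps1) and 3 that were lower (Apoa1, Cyp2f2 and Hpd), while 19.9% of all tested genes did not overlap in either direction. Tat was too low to enter, and its groups did not overlap, like those of 8.4% of the genes averaging under 0.5 RPKM. In bulk RNA, fewer cells of a type and less RNA per cell cannot be told apart.

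Slc2a1 was by far the most abundant of the 10 transcripts. Its level was 65.0, 58.8 and 59.9 RPKM in β-gal replicates 1, 2 and 3 and 60.5, 56.3 and 59.2 RPKM in Aloxe3 replicates 7, 8 and 9. The groups overlapped, and only Aloxe3 replicate 8 lay below every β-gal library. By mean level the gene ranked 870 among all genes listed, above 93.2% of the genes tested. It rested on 4408 to 5980 reads per library. The gene lies on the forward strand of chromosome 4 (GRCm38, 119108711 to 119137983). A pair of antisense genes overlap it, Gm12867 and Gm12868, and the library protocol names no step that keeps strand. Reads on bases covered by exons of more than 1 gene would then be ambiguous and stay uncounted. Gm12867, the higher of them, was at 0.6 to 1.41 RPKM.

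Slc2a2, the carrier known from hepatocytes, was at a small share of that level. It had 0.901, 0.538 and 0.995 RPKM in the β-gal libraries and 0.925, 0.861 and 0.839 RPKM in the Aloxe3 libraries. The 3 Aloxe3 values lay between the lowest and the highest β-gal value, and β-gal replicate 2 stood below the other 5 libraries. The gene (chromosome 3, 28697903 to 28731359, forward strand) ranked 11437 among all genes, above 9.9% of those tested. Its values rest on 48 to 81 reads per library, so that counting alone gives a coefficient of variation of 12% per β-gal library, against 29.8% observed between the 3 β-gal libraries and 5.16% between the 3 Aloxe3 libraries. The level of Slc2a1 was 60.2 to 109 times that of Slc2a2 in the β-gal libraries and 65.4 to 70.6 times in the Aloxe3 libraries. The highest ratio was that of β-gal replicate 2.

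To show the sequence in front of the most abundant member and of the member known for hepatocytes, the RefSeq windows from 250 bases before to 50 bases after the start of both genes are given (GRCm38.p6, forward strand, chr4:119108495-119108794 for Slc2a1 and chr3:28697653-28697952 for Slc2a2). Capitals mark TATAAA and CCGCCC, the cores of a TATA box and of a GC box, searched on both strands without overlap between them, along with the E-box CACGTG.
Slc2a1: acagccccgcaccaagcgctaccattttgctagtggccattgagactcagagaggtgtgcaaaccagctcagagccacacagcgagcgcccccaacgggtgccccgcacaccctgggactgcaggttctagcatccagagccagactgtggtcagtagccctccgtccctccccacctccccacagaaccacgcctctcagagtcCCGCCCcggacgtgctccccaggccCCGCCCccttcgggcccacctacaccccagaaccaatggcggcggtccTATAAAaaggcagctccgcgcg
Slc2a2: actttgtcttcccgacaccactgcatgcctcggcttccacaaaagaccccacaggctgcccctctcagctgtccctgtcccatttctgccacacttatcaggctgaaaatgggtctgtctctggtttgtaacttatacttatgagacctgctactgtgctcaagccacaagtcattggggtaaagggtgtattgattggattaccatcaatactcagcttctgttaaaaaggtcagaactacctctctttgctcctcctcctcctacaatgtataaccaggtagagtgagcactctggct

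The Slc2a1 window held 2 matches to CCGCCC and 1 to TATAAA, while the Slc2a2 window held neither. Of 32851 windows of the same length, 35.7% hold CCGCCC and 13.6% hold TATAAA. Slc2a1 had a GC content of 65.3% with 18 CpG dinucleotides, and Slc2a2 of 48.0% with 2, against medians of 52.7% and 7 over all windows. Among the 8 members with a window in the RefSeq table, CCGCCC was found in those of Slc2a1, Slc2a6, Slc2a10 and Slc2a13, and TATAAA only in that of Slc2a1. CACGTG, which 7.15% of all windows hold, was found in 0 of the 8. These are matches of letters, and no binding was measured. Slc2a3 and Slc2a4 had no window in the table.

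Of the carriers that reside mainly inside the cell, Slc2a8 was the most abundant. It encodes GLUT8, a carrier of endosomal and lysosomal membranes for glucose, fructose and trehalose. Its level was 2.06, 2.26 and 2.34 RPKM in the β-gal libraries and 2.08, 2.10 and 2.02 RPKM in the Aloxe3 libraries, from 124 to 171 reads (chromosome 2, 32972990 to 32982083, reverse strand). The groups overlapped through β-gal replicate 1, the lowest of its group. Slc2a6, whose product GLUT6 is a lysosomal carrier of leukocytes, was at 0.179 to 0.193 RPKM with β-gal and at 0.153 to 0.256 RPKM with Aloxe3 (chromosome 2, 27021363 to 27027998, reverse strand). The Aloxe3 values lay on both sides of the β-gal values, and 13 to 25 reads per library stood behind them.

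Slc2a9 encodes GLUT9, a carrier of urate in liver and kidney. It was at 1.63, 1.69 and 1.68 RPKM in the β-gal libraries and at 1.27, 1.57 and 1.61 RPKM in the Aloxe3 libraries, from 165 to 279 reads (chromosome 5, 38349273 to 38503143, reverse strand). Every Aloxe3 library was below every β-gal library, with the gap between 1.61 and 1.63 RPKM, and Aloxe3 replicate 7 stood lowest. The β-gal libraries differed from each other by less than counting error, with a coefficient of variation of 2.01% against 6.13% from counting.

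The remaining members were near the limit of detection. Slc2a12 encodes GLUT12, a glucose carrier described in muscle and fat, and had 4, 6 and 3 reads in the β-gal libraries and 2, 1 and 1 in the Aloxe3 libraries. Every Aloxe3 library was below every β-gal library. Scaled to library size, the ratio of Aloxe3 to β-gal reads was 0.352, with a 95% counting interval of 0.0837 to 1.14 (exact binomial). The gene overlaps Tbpl1 on the other strand, which was at 11.7 RPKM on average.

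Slc2a3, which encodes GLUT3, the high-affinity carrier of neurons, had 8, 5 and 7 reads with β-gal and 8, 0 and 2 reads with Aloxe3 (ratio 0.572, counting interval 0.239 to 1.28). Slc2a13, which encodes a myo-inositol carrier coupled to protons, had 4, 4 and 1 reads with β-gal and 8, 6 and 1 with Aloxe3 (ratio 1.91, counting interval 0.782 to 4.94). Both intervals include equal levels. Slc2a10, whose product GLUT10 is known from arterial tortuosity, had at most 2 reads in any library, and so had Slc2a4, which encodes GLUT4, the insulin-responsive carrier of muscle and fat. Both were under a floor of 3 reads per library in both groups, and no fold change is given for them. The groups of Slc2a4 did not overlap in RPKM, but 5 of its 6 values stand for 0 or 1 read, and their order within these follows library size. On GRCm38 these genes lie on chromosome 10, 22645011 to 22704285 (Slc2a12, forward), chromosome 6, 122727809 to 122801640 (Slc2a3, reverse), chromosome 15, 91267696 to 91573261 (Slc2a13, reverse), chromosome 2, 165503787 to 165519917 (Slc2a10, forward) and chromosome 11, 69942539 to 69948188 (Slc2a4, reverse). The intervals cover counting error only, and at this depth a difference in these genes was not detectable unless large.

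**Figure D1:**
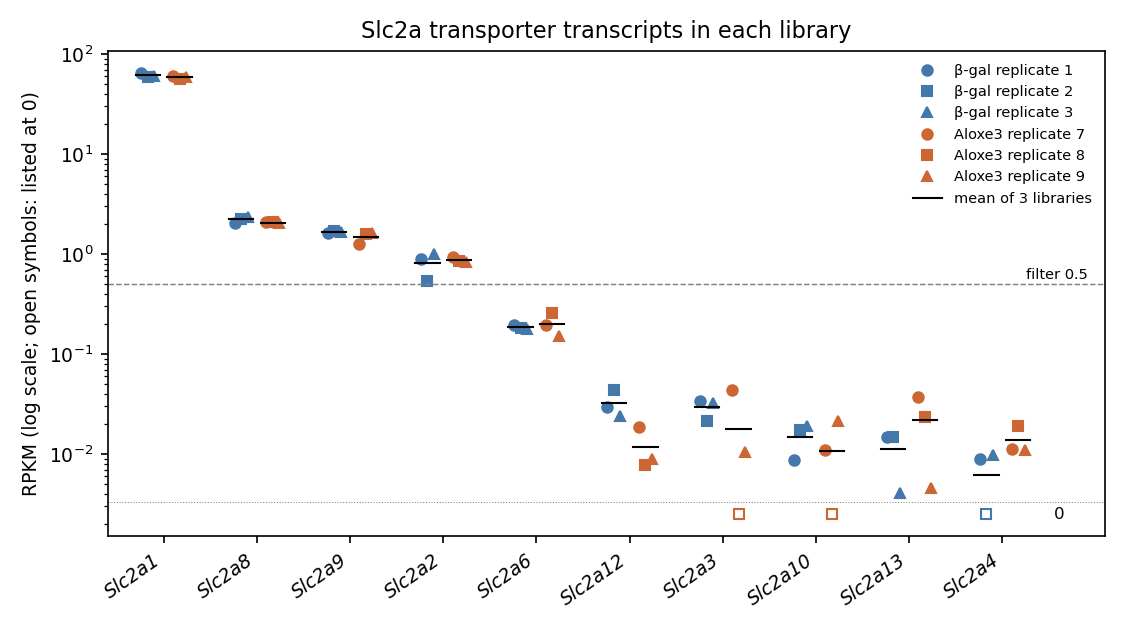
RPKM of the 10 Slc2a genes (log scale) in the 3 β-gal libraries (blue) and the 3 Aloxe3 libraries (orange), one symbol per library, with the mean of each group as a black line, open symbols for values of 0 and a dashed line at the filter of 0.5 RPKM. Slc2a1 sits between 56.3 and 65.0 RPKM, Slc2a8, Slc2a9 and Slc2a2 between 0.538 and 2.34 RPKM, and the other 6 below the filter.

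Ordered by mean level in the β-gal libraries, Slc2a1 came first, followed by Slc2a8, Slc2a9, Slc2a2 and Slc2a6. Each of these 5 stood above the next in the order in all 6 libraries, and their ranges did not overlap within either group. The steps were 27.6-fold from Slc2a1 to Slc2a8, 1.33-fold from Slc2a8 to Slc2a9, 2.05-fold from Slc2a9 to Slc2a2 and 4.39-fold from Slc2a2 to Slc2a6. Below Slc2a6 the order was Slc2a12, Slc2a3, Slc2a10, Slc2a13 and Slc2a4. Neighbours among these overlapped in both groups, other than Slc2a3 and Slc2a10, which were apart in the β-gal libraries, and the order differed between the groups. The first 5 held the same order with Aloxe3.

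The summed level of the 10 members was 66.2 ± 3.3 RPKM (SD, n = 3) with β-gal and 63.4 ± 2.1 RPKM (SD, n = 3) with Aloxe3. Slc2a1 made up 91.9% to 93.0% of this sum in the β-gal libraries and 92.1% to 92.9% in the Aloxe3 libraries. Slc2a8 followed with 2.94% to 3.6% and 3.17% to 3.43%. The share of Slc2a2 was 0.846% to 1.53% with β-gal and 1.31% to 1.42% with Aloxe3. Without Slc2a1 the members summed to 4.98 ± 0.27 RPKM and 4.7 ± 0.12 RPKM (SD, n = 3 each). The ranges of both groups overlapped for the sum and for each of these shares.

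Whether forced Aloxe3 expression changed any of these transcripts was tested as log2(RPKM + 1) with limma over 12693 genes that averaged 0.5 RPKM or more. The 4 members that passed this filter were Slc2a1, Slc2a2, Slc2a8 and Slc2a9, and 0 of them had an adjusted p under 0.05, while 0.394% of all tested genes did (0.355% higher and 0.0394% lower with Aloxe3). At an unadjusted p under 0.05 the count was also 0, against 12.7% of all tested genes. With voom on the reads derived from the values, 0 had an adjusted p under 0.05. The log2 fold change of Slc2a1, -0.06 (SE 0.049, adjusted p = 0.648), had a 95% interval of -0.17 to 0.05, which spans a fall of RPKM + 1 by 11.3% to a rise by 3.81%. It was -0.02 without β-gal replicate 1, the highest library, and -0.03 without Aloxe3 replicate 8, the lowest. That of Slc2a2 was 0.06 (SE 0.1, adjusted p = 0.849), with a wider interval of -0.18 to 0.3. The sign for Slc2a2 turned without β-gal replicate 2, the low library, at -0.06 (adjusted p = 0.871, and 0.691 to 0.957 over all alternatives). The log2 fold change of Slc2a2 was 0.13 with 0.1 in place of 1 added to each RPKM value, since adding 1 shrinks differences between values near 1 RPKM. It was 0.16 with voom, which used the derived reads in place of RPKM.

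Slc2a8 gave -0.07 on the log2 scale (SE 0.055, adjusted p = 0.634), with a 95% interval of -0.2 to 0.06. It was -0.04 without β-gal replicate 3, the highest library, and -0.11 without β-gal replicate 1. Slc2a9 lay farthest from 0 of the 4 in this fit, at -0.10 (SE 0.068, adjusted p = 0.56) with an interval of -0.26 to 0.05. It was -0.04 without Aloxe3 replicate 7, where the gene was lowest. An exact permutation test of Slc2a9 gave a two-sided p of 0.1, the smallest that 3 libraries against 3 allow. Its groups did not overlap, with Aloxe3 lower, as was the case for 8.71% of all tested genes. The median log2 fold change of the 4 members was -0.06, and that of all tested genes 0.00.

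With no filter on low values, all 10 members could be fitted and 0 passed, against 0.028% of 24989 genes. In that fit the unadjusted p was over 0.05 for all 10, and the smallest was 0.1, that of Slc2a12. Among the 12296 genes below the filter, 2.37% had groups that did not overlap with Aloxe3 lower, as Slc2a12 did, and 8.4% in either direction.

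**Figure D2:**
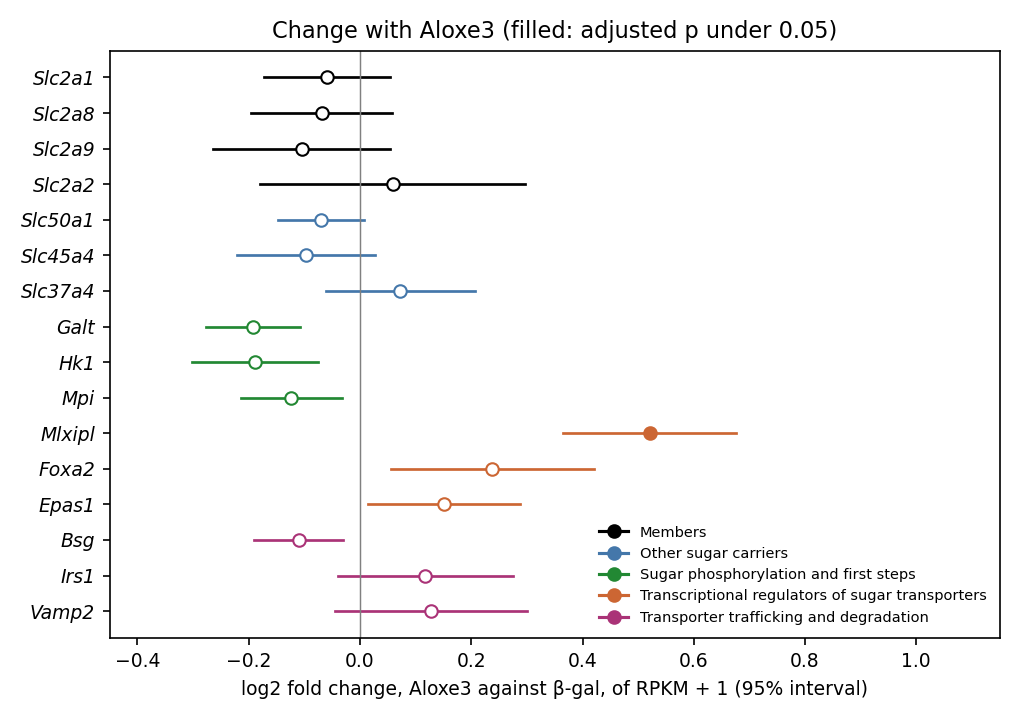
Log2 fold change of RPKM + 1, Aloxe3 against β-gal, with its 95% interval from limma, for the 4 tested Slc2a members (black) and the 3 genes with the smallest p in each of 4 sugar lists (colors), filled where the adjusted p was under 0.05. The intervals of all 4 members include 0, and only Mlxipl, at 0.52, is filled.

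Other genes of sugar handling were examined as 4 lists. The first held 18 other sugar carriers, of which 8 were tested, 7 lay below the filter and 3 were at 0 in every library. The family genes outside the 10 were Slc2a5, the fructose carrier GLUT5, at 0.0795 to 0.136 RPKM with β-gal and 0.0461 to 0.133 RPKM with Aloxe3, and Slc2a7, which was listed at 0 throughout. The sodium-coupled glucose carriers of gut and kidney, Slc5a1 and Slc5a2, were at 0.0191 to 0.129 and 0.0214 to 0.0795 RPKM. The groups of Slc5a2 did not overlap, at 0.0214 to 0.035 RPKM with β-gal and 0.0406 to 0.0795 RPKM with Aloxe3. Its values rest on 2, 3 and 3 reads with β-gal and 3, 7 and 5 with Aloxe3. Groups did not overlap in either direction for 8.4% of the genes below the filter. The most abundant of the list by mean was Slc50a1, a carrier of the SWEET family, which averaged 15.2 ± 0.072 RPKM in the 3 β-gal libraries and 14.4 ± 0.21 RPKM in the 3 Aloxe3 libraries (± SD). It also had the smallest p, and its log2 fold change of -0.07 (SE 0.033, adjusted p = 0.427) was not past the threshold. The next by p were Slc45a4 (log2 fold change -0.10) and Slc37a4, the carrier of glucose 6-phosphate into the endoplasmic reticulum (0.07). In this list 0 of the 8 tested genes passed the threshold in limma, and 0 had an unadjusted p under 0.05, against 12.7% of all tested genes. The groups of 2 of the 8 tested genes, Slc50a1 and Slc45a4, did not overlap, with Aloxe3 lower, as for 8.71% of all tested genes. The median log2 fold change was -0.01.

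The second list, the enzymes of phosphorylation and the first steps of hexose use, had 19 of 22 genes tested and 0 past the threshold with limma, with 2 higher and 3 lower at an unadjusted p under 0.05, where 928 higher and 688 lower were found among all 12693 tested genes. The levels of 3 of its genes are given after they were seen. Hk2, the hexokinase of muscle and growing cells, was at 16.2 to 17.4 RPKM with β-gal and 15.8 to 17.0 RPKM with Aloxe3. G6pc, the glucose 6-phosphatase of liver, was at 0.0128 to 0.157 RPKM over the 6 libraries, and the ubiquitous G6pc3 at 7.88 to 9.14 RPKM. The values of all 3 overlapped between the groups.

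**Figure D3:**
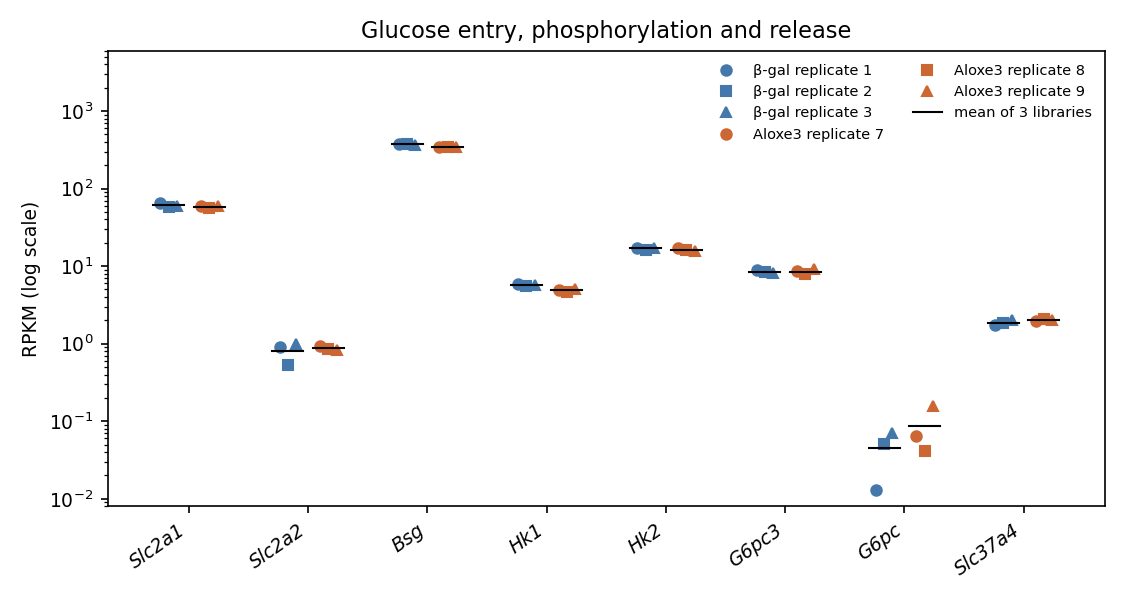
RPKM (log scale) of genes of glucose entry, phosphorylation and release in the 3 β-gal libraries (blue) and the 3 Aloxe3 libraries (orange), with group means as black lines. Slc2a1 lies above Slc2a2, and G6pc3 above G6pc, in every library, and the groups overlap for each of these 4 genes and for Hk2.

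The genes with the smallest p in this list had lower means with Aloxe3 without passing the threshold. Galt, which converts galactose 1-phosphate, averaged 9.05 ± 0.10 RPKM in the β-gal and 7.8 ± 0.13 RPKM in the Aloxe3 libraries (± SD of 3), or -0.19 on the log2 scale (SE 0.036, adjusted p = 0.1). Hk1, the broadly expressed hexokinase, averaged 5.68 ± 0.14 and 4.87 ± 0.27 RPKM (± SD of 3), also -0.19 on the log2 scale (SE 0.048, adjusted p = 0.237). For Mpi, the mannose phosphate isomerase, the log2 fold change was -0.12. The groups of these 3 genes did not overlap, as for 8.71% of all tested genes with Aloxe3 lower. Treh, the trehalase, was below the filter at 0.256 to 0.351 RPKM.

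Among 20 transcriptional regulators known to act on sugar transporter genes, all were tested and 1 passed, against 0.355% of all tested genes that were higher. Because this list was chosen with earlier results of these data known, the count allows no conclusion about the list. Mlxipl encodes ChREBP, the carbohydrate-response factor that hepatocytes use to sense glucose metabolites. It rose from 12.4, 13.5 and 14.5 RPKM in the β-gal libraries to 18.5, 19.6 and 21.2 RPKM in the Aloxe3 libraries. The groups were separate, with a difference of 0.52 on the log2 scale (SE 0.067, adjusted p = 0.0271). With any 1 of the 6 libraries left out, the adjusted p was above the threshold, from 0.057 to 0.13, at log2 fold changes of 0.47 to 0.57. Foxa2, a liver pioneer factor, had a log2 fold change of 0.24 (adjusted p = 0.297), which was 0.15 without Aloxe3 replicate 9. Epas1, a hypoxia-inducible factor, had one of 0.15 (adjusted p = 0.351). In this list 3 genes were higher and 0 lower at an unadjusted p under 0.05, against the 928 higher and 688 lower of all 12693, and its median log2 fold change was 0.04.

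The fourth list held 21 genes of transporter trafficking and degradation, all tested, with 0 past the threshold in limma and 1, Bsg, at an unadjusted p under 0.05. Bsg encodes basigin, a partner of several membrane carriers, and averaged 373 ± 6.0 RPKM in the β-gal and 346 ± 3.9 RPKM in the Aloxe3 libraries (± SD of 3). Its groups did not overlap, as for 8.71% of all tested genes with Aloxe3 lower. The log2 fold change of -0.11 (SE 0.034) had an adjusted p of 0.288, and it was -0.04 with quantile normalization (adjusted p = 0.726; 0.178 to 0.726 over all alternatives). Irs1, an insulin receptor substrate, and Vamp2, a vesicle protein of exocytosis, had log2 fold changes of 0.12 and 0.13. In this list the groups of 5 genes, Irs1 among them, did not overlap with Aloxe3 higher, and those of 2 with Aloxe3 lower. The shares of all tested genes were 11.2% and 8.71%. The median of the list was 0.03. Over the 4 lists together, 1 of 68 tested genes passed, against 0.394% of all tested genes. These lists were chosen with earlier results of these data known. At an unadjusted p under 0.05 there were 5 higher and 4 lower, against 12.7% of all tested genes. The groups of 10 of the 68 did not overlap with Aloxe3 higher and those of 7 with Aloxe3 lower, against 11.2% and 8.71% of all tested genes.

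**Figure D4:**
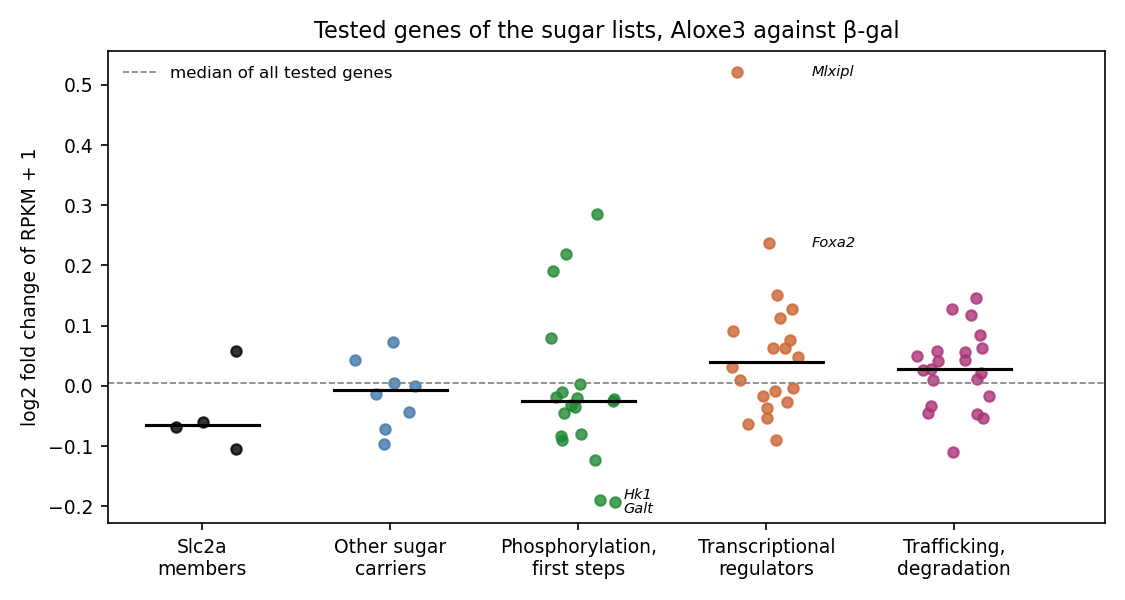
Log2 fold change of RPKM + 1, Aloxe3 against β-gal, of each tested gene of the Slc2a members and of the 4 sugar lists, with the median of each list as a black line and that of all tested genes as a dashed line; 4 genes described in the text carry their name. The list medians lie between -0.06 and 0.04, and Mlxipl stands apart at 0.52.

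Because Slc2a1 and Slc2a3 are also transcripts of other liver cells, markers of these cells were examined beside them. The 10 endothelial markers summed to 36.9 to 42.0 RPKM with β-gal and 36.6 to 41.7 RPKM with Aloxe3, led by Cdh5 at 14.2 to 16.6 RPKM, and the 10 markers of Kupffer cells to 154 to 158 and 135 to 150 RPKM. Most of the latter was Cd68, at 147 to 149 RPKM with β-gal and 129 to 141 RPKM with Aloxe3. Of the other Kupffer cell markers, Adgre1, Csf1r, C1qa, C1qb and Marco were at 0.705 to 2.42 RPKM, Ptprc at 0.153 to 0.192 RPKM, and Clec4f, Vsig4 and Timd4 at most 0.102 RPKM each. The summed Kupffer cell markers did not overlap between the groups, and Cd68 had a log2 fold change of -0.15, without passing the threshold (adjusted p = 0.262). The 10 stellate and fibroblast markers summed to 4.69 to 5.4 RPKM over all libraries, with Lrat at 0 in each. The 8 cholangiocyte markers summed to 1510 to 1720 RPKM, nearly all of it Spp1, with Krt19 at 32.9 to 51.0 RPKM, Sox9 at 38.3 to 49.3 RPKM and Krt7 and Cftr at most 0.163 RPKM. Of the 20 genes of these 4 lists that were tested, 0 passed the threshold in limma, against 0.394% of all tested genes, and 1, Cd68, had an unadjusted p under 0.05, against 12.7%. Among the tested markers the groups did not overlap for Cd68 and Acta2, both lower with Aloxe3, as for 8.71% of all tested genes. Of the markers in these 4 lists too low to be tested, only Epcam had groups that did not overlap. It was at 0.398 to 0.456 RPKM with β-gal and 0.154 to 0.334 RPKM with Aloxe3. Among genes below the filter, 2.37% had groups apart in this direction. The part of these other liver cells in the level of the Slc2a transcripts was not tested.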

How the data were processed

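RNA-seq was performed on 6 libraries, 3 per group, with groups and replicate numbers taken from the sample titles. The numbers differ between groups, so no pairs were formed, and no batch is named beyond 1 shared run. Per the study's methods and the submitters' processing notes, STAR 2.0.4b placed the 50-base single reads on GRCm38, featureCounts 1.4.5 tallied those with a unique and unambiguous place by gene, and the authors deposited RPKM. How RPKM was made from the counts is not given in the sources used here. No further normalization was applied.

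Values of a gene are whole multiples of 1 read, which gave each library size and the reads per gene (whole within 0.02, with the exon length of GENCODE M21 or, as for Slc2a1, Slc2a2 and Slc2a8, the smallest length that gave whole reads, known up to a common factor). Symbols and coordinates came from GENCODE M21 (GRCm38), with 40340 identifiers matched and 1048 not.

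log2(RPKM + 1) was tested in R 4.3.3 by limma 3.58.1 (eBayes with a mean-variance trend, two-sided, Benjamini-Hochberg over the 12693 genes averaging 0.5 RPKM or more, threshold 0.05), checked first on simulated reads. Lists were described by counts and medians, with no set test. The text names the 10 members, Aloxe3, in each list the genes past the threshold and the 3 with the smallest p, Slc2a5 and Slc2a7, and the 3 genes most like the member with the widest spread. The members and lists were chosen with earlier results of these data known, and other genes after their values were seen. Some genes of the lists are counted but not reported here by name. The alternatives were a pseudocount of 0.1, no filter, a filter at 5 RPKM, quantile normalization, scaling all libraries to an equal median, eBayes without trend, voom on the derived reads, and each library left out. Python 3.11.15, numpy 2.4.6, pandas 2.3.3, scipy 1.17.1 and matplotlib 3.10.9 were used.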

Additional observations from a re-analysis of the deposited data

How the results depend on the processing

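None of the Slc2a members tested passed the threshold under any of the 13 alternatives, which held all 10 without a filter, Slc2a1 alone with a filter at 5 RPKM, and 4 otherwise. Slc2a1 (log2 fold change from -0.09 to -0.02), Slc2a8 (-0.11 to -0.04) and Slc2a9 (-0.17 to -0.04) were lower with Aloxe3 in each alternative that included them, while Slc2a2 ranged from -0.06 to 0.16, and from -0.055 to 0.133 with 1 library left out, and was lower only without β-gal replicate 2. The difference in the summed level of the members, Aloxe3 less β-gal, was -2.81 RPKM, and -4.12 to -0.98 RPKM with 1 library left out. The count of genes past the threshold was 50, 7 without a filter, 174 with voom and 6 to 19 with 1 library left out. No paired analysis was possible because the groups share no replicate numbers. In the sugar lists the 1 gene past the threshold, Mlxipl, was lost (0 genes) without a filter (adjusted p = 0.155), with eBayes without trend (adjusted p = 0.0531) and in each fit that left out a library (0 to 0 genes), and its adjusted p ranged from 0.000167 to 0.155. The cause was not tested. Aloxe3 passed in all. Members under 0.5 RPKM rest on at most 25 reads per library.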

Other observations

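Of the tested members, Slc2a2 varied most over the 6 libraries, with an SD of 0.13 on the log2(RPKM + 1) scale. The 3 genes whose centred values over the 6 libraries were most like its own, among 12692 compared, were Rcn3, Gapdh-ps14 and Pacs1, with root-mean-square differences of 0.021, 0.032 and 0.047 on that scale. Rcn3, which encodes a calcium-binding protein of the secretory pathway, had 0.792, 0.442 and 0.822 RPKM in the β-gal libraries and 0.831, 0.738 and 0.755 RPKM in the Aloxe3 libraries. In all 3 genes, as in Slc2a2, β-gal replicate 2 was the lowest of the 6 libraries. They were chosen for this likeness over 6 points that share depth and scaling, and no relation beyond it was tested.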
